A study of Mus musculus with 6 samples.

Results

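Tuft cells are a rare secretory lineage of the intestinal epithelium, and 10 genes that mark them were followed here in RNA sequencing of mouse small intestinal mucosa. The genes were the transcription factors Pou2f3 and Gfi1b, the ion channel Trpm5, the tuft cell marker Dclk1, the cytoskeletal and adaptor genes Avil and Sh2d6, the cytokine Il25, and the eicosanoid pathway genes Alox5ap, Hpgds and Ptgs1. They were taken as a named list with no threshold on a measured value, and all 10 were found among the 38561 genes of the count tables. The samples were 3 pools labelled Rbm47-IKO, from mice with intestinal deletion of the RNA binding protein gene Rbm47, and 3 pools labelled wt. Each pool held RNA of 3 C57BL/6J mice of both sexes, aged 8 to 12 weeks, with no treatment named in the labels. For mice per pool and for age, the text of the study gives wider ranges than these. The study describes its deletion as constitutive, with Cre driven by the villin promoter, which acts in the epithelium and not in stroma or immune cells. Its controls are described there as Rbm47 fl/fl mice, whereas the labels give wt. The comparison asks whether the tuft cell genes differed between these genotypes.

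Tuft cells sense luminal signals through a pathway shared with taste cells. Receptor signalling releases calcium from internal stores, calcium opens the TRPM5 channel, and the activated cell secretes IL-25, cysteinyl leukotrienes and prostaglandin D2. IL-25 acts on group 2 innate lymphoid cells, whose IL-13 returns to the crypt and raises the number of tuft and goblet cells. POU2F3 is needed for the lineage to form.

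Libraries held 31560320 to 38951830 counts. The targeted gene went against the labels. Rbm47 stood at 603, 625 and 620 normalized CPM (counts per 1e6 counts of the library, scaled by TMM) in Rbm47-IKO pools 1, 2 and 3 and at 460, 450 and 472 CPM in wt pools 1, 2 and 3. Every pool labelled Rbm47-IKO lay above every wt pool, and the difference was 0.42 on the log2 scale (SE 0.10, adjusted p = 0.0751 in the edgeR quasi-likelihood test), so the counts over the whole gene do not show the deletion and all directions below are those of the labels. Whether labels were exchanged or a deleted allele was still transcribed was not tested, and an exchange would turn every direction. Among those it would turn are Areg and Il33, at log2 fold changes of 1.56 and 0.54 under the labels. The hormone genes Cck and Gip, at -1.24 and -0.76, would turn too. Of these 4, only Areg passed (edgeR adjusted p of 0.00875, beside 0.280, 0.101 and 0.0870). Smooth muscle also differed between pools, with 6 genes led by Myh11 summing to 3302 CPM in Rbm47-IKO 3 and 2803 CPM in wt 2 and to 90.7 to 586 CPM in the other 4 pools.

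None of the 10 tuft cell genes passed the test between genotypes. All 10 were tested, and by edgeR 0 passed at an adjusted p of 0.05, beside 2.7% of the 16425 genes tested. By limma-voom, by DESeq2 and in edgeR without the 2 muscle-rich pools the number was also 0. Over all genes those fits called 431, 1132 and 327. In the edgeR test of all pools 0 had an unadjusted p under 0.05, beside 16.8% of all genes tested. Adjusted p ranged from 0.382 for Hpgds to 0.978 for Ptgs1. The fitted log2 fold change, labelled Rbm47-IKO over wt throughout, was above 0 for Dclk1 and Ptgs1 and below 0 for the other 8, with a median of -0.14 (all genes tested, -0.0059). These signs were not stable, since in the fit without the 2 muscle-rich pools Pou2f3, Gfi1b, Trpm5, Avil, Sh2d6 and Il25 turned above 0, at 0.03, 0.24, 0.00011, 0.17, 0.17 and 0.70. The genotypes overlapped in normalized CPM for every member, whereas 23.3% of all genes tested had values that did not overlap. The spread between pools of 1 genotype was wide for these genes. The median SD of log2 CPM within a genotype was 0.60 over the members and 0.24 over all genes tested. In bulk RNA, a change in the number of tuft cells and a change in RNA per tuft cell cannot be told apart.

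**Figure D1:**
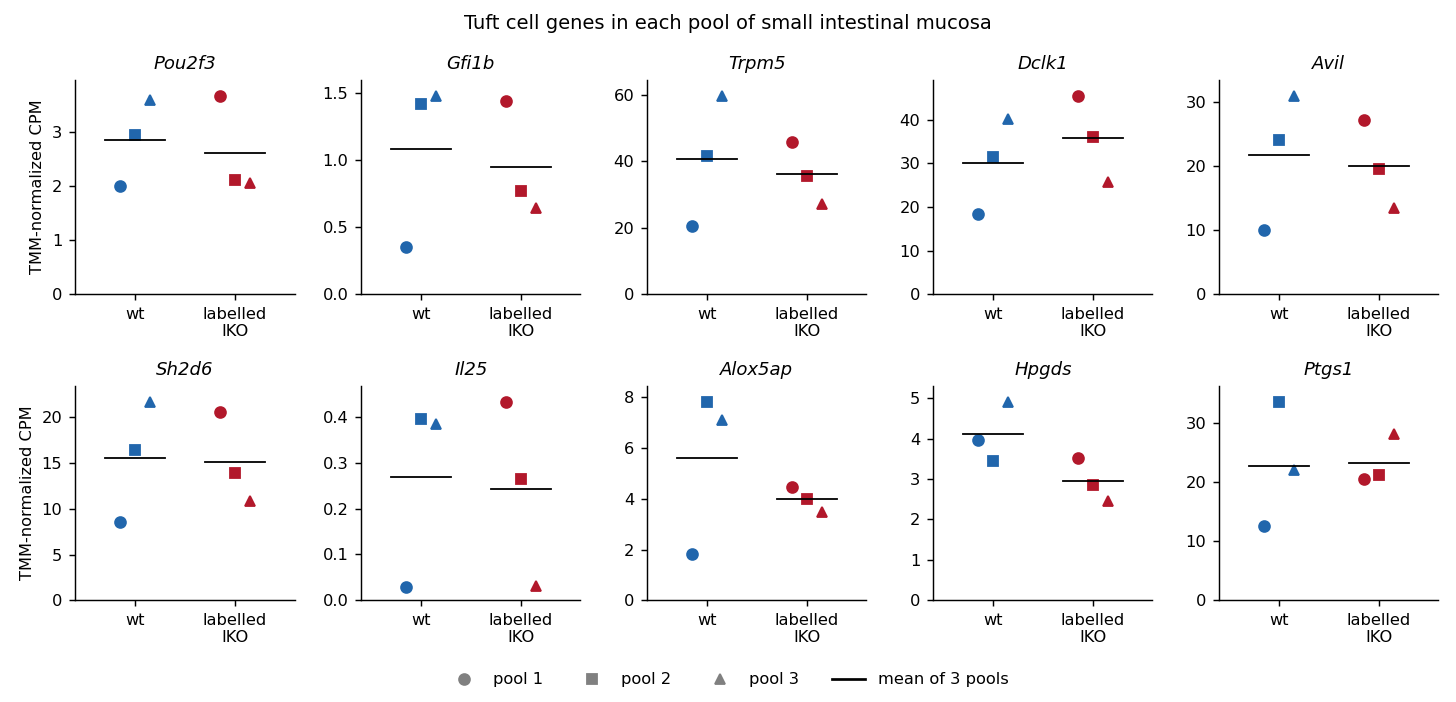
TMM-normalized CPM (vertical axis, from 0 in each panel) of the 10 tuft cell genes in 3 wt pools (blue) and 3 pools labelled Rbm47-IKO (red), with symbols for the pool number and a line at the mean of 3 pools. The genotypes overlap in every panel, and wt 1 is the lowest of the 6 pools in 9 panels, Hpgds being the exception.

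Pou2f3, the POU domain factor that specifies the lineage, lies on the minus strand of chromosome 9 (chr9:43122628-43210369, GRCm38). Its level was 3.67, 2.11 and 2.05 CPM in Rbm47-IKO pools 1, 2 and 3 and 2.0, 2.95 and 3.59 CPM in wt pools 1, 2 and 3. The highest and the lowest pool, Rbm47-IKO 1 and wt 1, came from different genotypes and the ranges overlapped almost in full. The log2 fold change was -0.13 (SE 0.34, 95% confidence interval -0.91 to 0.66, edgeR adjusted p = 0.917), on 67 to 131 counts per pool.

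Gfi1b (chr2:28609450-28621982, minus strand), a zinc finger repressor best known from blood cells and also present in tuft cells, was the scarcer of the 2 factors. It had 50, 29 and 21 counts in Rbm47-IKO pools 1, 2 and 3 and 12, 54 and 54 counts in wt pools 1, 2 and 3. Within wt, pool 1 was at 0.353 CPM while pools 2 and 3 were at 1.42 and 1.48 CPM, so the spread within wt took in all 3 values of the other genotype. The log2 fold change of -0.19 had an SE of 0.57 (95% confidence interval -1.53 to 1.14, edgeR adjusted p = 0.925).

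Trpm5, the calcium-activated cation channel that depolarizes the cell, lies on the minus strand of chromosome 7 (chr7:143069153-143094642). Trpm5 was at 45.7, 35.4 and 27.0 CPM in Rbm47-IKO pools 1, 2 and 3 and at 20.6, 41.4 and 59.7 CPM in wt pools 1, 2 and 3. The lowest and the highest pool were both wt, 2.90-fold apart, and the 3 pools labelled Rbm47-IKO lay between them. Means were 36.1 ± 9.34 CPM and 40.6 ± 19.6 CPM (SD, n = 3 each), and the log2 fold change was -0.17 (SE 0.36, 95% confidence interval -1.01 to 0.67, adjusted p = 0.889 by edgeR). Trpm5 overlaps Tssc4 in the annotation, and reads of overlapping genes may be split between them.

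Avil encodes advillin, an actin-binding protein of the tuft cell apex, and Sh2d6 an SH2 domain adaptor. Avil (chr10:127000709-127020994, plus strand, overlapping Tsfm) was at 27.2, 19.5 and 13.5 CPM in Rbm47-IKO pools 1, 2 and 3 and at 10.0, 24.0 and 31.0 CPM in wt pools 1, 2 and 3. Sh2d6 (chr6:72513644-72521634, minus strand) was at 20.6, 13.9 and 10.8 CPM in Rbm47-IKO pools 1, 2 and 3 and at 8.59, 16.4 and 21.7 CPM in wt pools 1, 2 and 3. Both genes ordered the 6 pools as Trpm5 did, from wt 1 at the bottom through Rbm47-IKO 3, Rbm47-IKO 2, wt 2 and Rbm47-IKO 1 to wt 3 at the top. Avil differed by -0.11 on the log2 scale (SE 0.41, 95% confidence interval -1.06 to 0.84, adjusted p = 0.941 by edgeR) and Sh2d6 by -0.04 (SE 0.36, 95% confidence interval -0.87 to 0.79, adjusted p = 0.975 by edgeR). Per length, Sh2d6 was the most abundant member, at a mean of 8.83 RPKM over the 6 pools, ahead of Avil at 6.14 and Trpm5 at 5.99 RPKM.

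The promoter windows of Trpm5, Avil and Sh2d6 are shown because these 3 genes kept the same order over the pools. Gfi1b kept that order as well, on 12 to 54 counts a pool, and its window, with CCAAT at -83, is not shown. Each runs from 250 bases before to 50 after the start that RefSeq gives in GRCm38.p6, written 5′ to 3′ on the gene's strand, and the Sh2d6 start lies inside the longer gene of the count annotation. Capitals mark the letters CCAAT, read on either strand.
Trpm5, chr7:143094593-143094892, minus strand: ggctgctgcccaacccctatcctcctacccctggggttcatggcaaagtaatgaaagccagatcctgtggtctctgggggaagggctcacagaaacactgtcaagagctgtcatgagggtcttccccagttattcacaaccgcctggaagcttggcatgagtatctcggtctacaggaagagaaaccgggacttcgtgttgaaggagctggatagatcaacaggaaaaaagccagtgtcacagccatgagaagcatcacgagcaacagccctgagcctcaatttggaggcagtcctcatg
Avil, chr10:127000459-127000758, plus strand: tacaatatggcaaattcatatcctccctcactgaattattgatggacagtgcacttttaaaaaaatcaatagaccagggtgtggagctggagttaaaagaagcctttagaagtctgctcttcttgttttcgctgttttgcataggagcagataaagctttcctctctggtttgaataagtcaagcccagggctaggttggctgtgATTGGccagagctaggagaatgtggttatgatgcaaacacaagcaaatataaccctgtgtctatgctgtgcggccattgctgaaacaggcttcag
Sh2d6, chr6:72519987-72520286, minus strand: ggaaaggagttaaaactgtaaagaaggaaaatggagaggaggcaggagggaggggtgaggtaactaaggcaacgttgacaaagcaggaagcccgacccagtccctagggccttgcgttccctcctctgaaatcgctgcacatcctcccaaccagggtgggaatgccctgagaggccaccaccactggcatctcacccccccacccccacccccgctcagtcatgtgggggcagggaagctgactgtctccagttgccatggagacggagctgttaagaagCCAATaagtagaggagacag
CCAAT begins at -45 in Avil and at 30 in Sh2d6, counted from 0 at the start, and is not among the letters of the Trpm5 window. RefSeq windows were matched for 7 of the 10 members, 8 windows in all with 2 for Dclk1, and not for Pou2f3, Il25 or Alox5ap. CCAAT was in 4 of the 8 and in 37.4% of all 32851 windows, both strands being searched. GGGCGG was in 1 of the 8 (Gfi1b) and in 35.7% of all windows. TATAAA was in 0 of the 8 and in 13.6% of all windows.

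Dclk1, a microtubule-associated kinase and the usual marker for counting tuft cells, is also made in neurons. Its gene is on the plus strand of chromosome 3 (chr3:55242526-55539064). Dclk1 was at 45.5, 36.0 and 25.8 CPM in Rbm47-IKO pools 1, 2 and 3 and at 18.3, 31.5 and 40.1 CPM in wt pools 1, 2 and 3. The top pool was labelled Rbm47-IKO and the lowest was wt, and the other 4 interleaved. Means were 35.8 ± 9.85 CPM and 30.0 ± 11.0 CPM (SD, n = 3 each), and the log2 fold change was 0.26, with an SE of 0.30 (edgeR, adjusted p of 0.772). The 95% confidence interval of that difference ran from a fold of 0.733 to a fold of 1.94. That interval holds changes in either direction. The size of change in Dclk1 itself that 3 pools a genotype could detect was not tested. Summed markers of enteric neurons, 6 genes, were at 6.15, 7.16 and 27.6 CPM in Rbm47-IKO pools 1, 2 and 3 and at 7.47, 25.5 and 10.5 CPM in wt pools 1, 2 and 3. Within the pools labelled Rbm47-IKO the neuron markers were highest where Dclk1 was lowest, and within wt both were lowest in pool 1. The part of neurons in the Dclk1 values was not tested.

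The study also designed quantitative PCR primers for Dclk1, shown here because they read a short piece of a gene that is counted whole in these libraries.
Dclk1 forward primer: ggccagcgccatcaaat
Dclk1 reverse primer: ttgatgtcacggtggacgat
They match chr3:55489827-55489843 and chr3:55489861-55489880 and bound a 54-base product within 1 coding exon. Both match 8 of the 15 Dclk1 transcripts of GENCODE M21, all of them among the 11 that code for protein. The deposited counts sum every Dclk1 transcript over 12991 exonic bases and do not separate those 8 from the others.

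Il25, the cytokine through which tuft cells address innate lymphoid cells, was barely detected. It had 15, 10 and 1 counts in Rbm47-IKO pools 1, 2 and 3 and 1, 15 and 14 counts in wt pools 1, 2 and 3. A single count stood in each of Rbm47-IKO 3 and wt 1, the pools that were also lowest for Trpm5 in their genotypes, and the ranges overlapped. The log2 fold change of -0.15 had a 95% confidence interval of -2.31 to 2.01 (SE 0.93, edgeR adjusted p = 0.963). The size of difference that these counts could detect was not tested. The gene lies at chr14:54932695-54935837 on the plus strand.

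The eicosanoid genes did not share 1 pattern. Alox5ap (chr5:149265058-149288045, plus strand), which presents arachidonic acid to 5-lipoxygenase for leukotriene synthesis, was at 4.45, 4.01 and 3.49 CPM in Rbm47-IKO pools 1, 2 and 3 and at 1.82, 7.83 and 7.13 CPM in wt pools 1, 2 and 3. The wt pools stood on both sides of the narrow range of the other genotype. The log2 fold change was -0.49 (SE 0.48, 95% confidence interval -1.61 to 0.62, edgeR adjusted p = 0.708). Alox5ap is also made by myeloid cells.

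Hpgds, the hematopoietic prostaglandin D2 synthase, had the lowest adjusted p of the 10 members and did not pass. Hpgds was at 3.52, 2.85 and 2.45 CPM in Rbm47-IKO pools 1, 2 and 3 and at 3.97, 3.45 and 4.91 CPM in wt pools 1, 2 and 3. Only Rbm47-IKO 1 reached into the wt range, above wt 2. The log2 fold change was -0.48 (SE 0.24, 95% confidence interval -1.05 to 0.09, unadjusted p = 0.0857 and adjusted p = 0.382 by edgeR). The Hpgds promoter window was the only 1 of the 8 with the octamer ATGCAAAT, the sequence for which the POU family of octamer factors is named, read on both strands and present in 1.74% of all windows. The RefSeq start lies inside the longer Hpgds gene of the count annotation (chr6:65117293-65144908, minus strand), so the octamer is upstream of the RefSeq start and within that gene. It is shown with 8 bases on each side and the octamer in capitals.
Hpgds, chr6:65144889-65144912, minus strand, octamer at -174: tactctttATGCAAATacgttgga

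Ptgs1, the constitutive cyclooxygenase, is expressed in tuft cells and also in stroma and platelets. Ptgs1 (chr2:36230426-36252272, plus strand) was at 20.5, 21.2 and 28.0 CPM in Rbm47-IKO pools 1, 2 and 3 and at 12.6, 33.5 and 22.0 CPM in wt pools 1, 2 and 3. Its highest pool in each genotype was Rbm47-IKO 3 and wt 2, the same pools that were rich in smooth muscle RNA. The log2 fold change was 0.03 (SE 0.32, 95% confidence interval -0.72 to 0.78, edgeR adjusted p = 0.978). Fibroblast markers, 5 genes including Col1a1, summed to 189 and 197 CPM in Rbm47-IKO 3 and wt 2 and to 38.8 to 116 CPM in the other 4 pools. Macrophage markers, 7 genes including Csf1r, were highest in wt 2 at 106 CPM and ranged from 57.5 to 80.2 CPM elsewhere. Platelet markers, 5 genes, ranged from 38.2 to 62.6 CPM, nearly all from Gp1bb, with Ppbp at 0 to 4 counts. The sum was lowest in wt 2, while Pf4 of the same list was highest in wt 2 and Rbm47-IKO 3, at 43 and 29 counts, and at 1 to 16 counts elsewhere. Mast cell markers, 8 genes, summed to 15.7 to 23.1 CPM in 5 pools and 23.2 CPM in Rbm47-IKO 1, mostly from Kit. Of the mast cell proteases, Mcpt1 had 51 to 131 counts and Mcpt2 22 to 45, both highest in wt 1, where Hpgds departed from the other members, while Kit was lowest of the 6 pools in wt 1, at 382 counts, and Cpa3 had 2 to 6 counts and Cma1 0 to 1. The part of these cells in the member values was not tested.

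**Figure D2:**
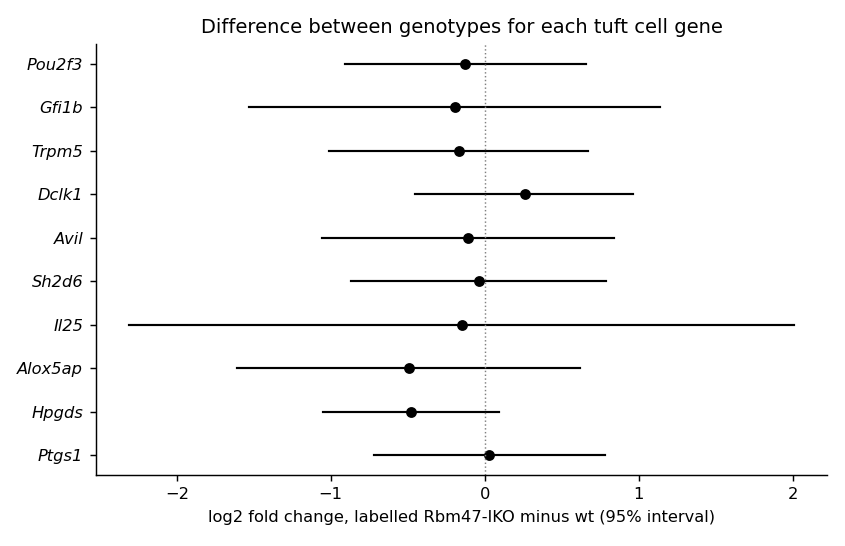
Fitted log2 fold change (points) of the 10 tuft cell genes, labelled Rbm47-IKO over wt, with 95% confidence intervals (lines) from edgeR over 3 pools a genotype. Every interval crosses 0, and the widest, that of Il25, runs from -2.31 to 2.01.

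Most members varied together from pool to pool. Over the 6 pools, the log2 CPM of Pou2f3, Gfi1b, Trpm5, Dclk1, Avil, Sh2d6, Il25 and Alox5ap correlated with the mean of the other 9 members at a Pearson r of 0.86 to 0.99. The same r was 0.30 for Hpgds and 0.43 for Ptgs1. Among the 28 pairs of the first 8 genes r was at least 0.72, with a median of 0.90, and among the pairs with Hpgds or Ptgs1 it ran from -0.38 to 0.77, with a median of 0.41. For the 6 pairs of Trpm5, Dclk1, Avil and Sh2d6, r was 0.90 to 0.99 over all pools and 0.98 to 0.99 for the deviations from the genotype means. These are descriptions over 6 libraries that share their depth and composition between genes, and no test was made of them.

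The sum of the 10 members gives the same picture in 1 value a pool. It was 173, 136 and 114 CPM in Rbm47-IKO pools 1, 2 and 3 and 78.3, 163 and 192 CPM in wt pools 1, 2 and 3. The richest and the poorest pool were both wt, so pools of 1 genotype differed more than the genotypes did. Goblet markers, 7 genes including Muc2 whose cells share the secretory origin and the response to IL-13, summed to 22078 to 25534 CPM in the pools labelled Rbm47-IKO and to 16538 to 19329 CPM in wt. Most of that sum was Fcgbp, at 10400 to 15200 CPM a pool. By edgeR 0 of the 7 passed (lowest adjusted p 0.123), 2 were at an unadjusted p under 0.05, and 2 of the 7 did not overlap between genotypes, beside the 23.3% of all genes tested. Muc2 itself overlapped.

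**Figure D3:**
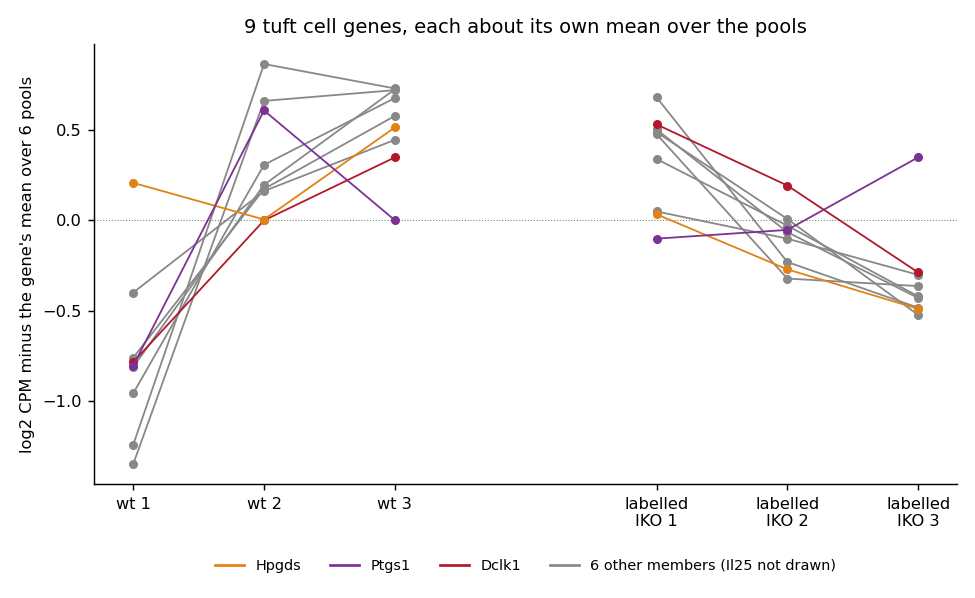
Log2 normalized CPM of 9 tuft cell genes in each pool after subtraction of the gene's own mean over the 6 pools (vertical axis), with Il25 left out for its single counts. Lines join the values of 1 gene within a genotype and imply no order of pools. Dclk1 (red) and Trpm5, Avil, Sh2d6 and the other grey genes are lowest in wt 1, where Hpgds (orange) is above its mean. Ptgs1 (purple) is highest in wt 2 and Rbm47-IKO 3.

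Relative to some other members, the level of Dclk1 did not overlap between genotypes. This was seen after the values were known and carries no test. At 1 of 10 members it is near the share, given below, among genes that follow the member profile. The ratio of Dclk1 to Trpm5 in CPM was 0.996, 1.02 and 0.954 in Rbm47-IKO pools 1, 2 and 3 and 0.889, 0.760 and 0.671 in wt pools 1, 2 and 3. Every pool labelled Rbm47-IKO was above every wt pool, at means of 0.988 ± 0.0317 and 0.773 ± 0.109 (SD, n = 3 each). Dclk1 was not alone in this. The ratio to Trpm5 did not overlap for 4 of the 40 other tuft cell genes tested (10.0%), for 9.95% of the 603 non-members whose deviations from the genotype means followed the member profile at an r of at least 0.90, and for 2.67% of all other genes tested, most of which lack the wide spread of Trpm5 between pools. Ratios to Sh2d6 (2.21 to 2.59 against 1.85 to 2.13) and to Pou2f3 (12.4 to 17.0 against 9.16 to 11.1) did not overlap either. For these ratios the share over all genes was not counted. The ratio to Avil overlapped, at 1.67 to 1.90 against 1.29 to 1.83. Measured against the mean log2 CPM of the other 9 members, Dclk1 was 0.39 higher on the log2 scale in the pools labelled Rbm47-IKO, without overlap, and it was the only 1 of the 10 members of which this held. Against the mean of all 10 members, values did not overlap for 2.67% of all 16415 non-members tested. They did not overlap for 3 of the 40 other tuft cell genes (7.5%) and for 10.6% of the same 603 genes. The share among the members is near that of the 603 genes.

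**Figure D4:**
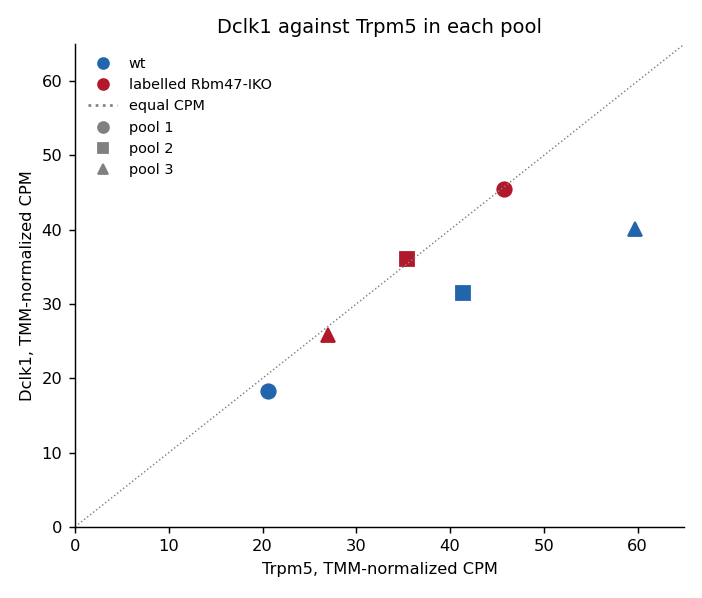
TMM-normalized CPM of Dclk1 (vertical axis) against that of Trpm5 (horizontal axis) in each of 6 pools, wt in blue and labelled Rbm47-IKO in red, with a dotted line at equal CPM. The pools labelled Rbm47-IKO lie along the line, at ratios of 0.954 to 1.02, and the wt pools lie under it, at 0.671 to 0.889.

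Other genes known from tuft cells were described in 4 lists. Of 43 that had counts, 40 were tested, and by edgeR 1 was higher and 0 lower at an adjusted p of 0.05, beside 1.45% of all genes tested that were higher and 1.25% that were lower. At an unadjusted p under 0.05 the number was 2, beside 16.8% of all genes tested. By limma-voom 1 was called and by DESeq2 2, beside 431 and 1132 over all genes. Fold changes were above 0 for 14 and below 0 for 26, with a median of -0.18. Many of the 40 genes are also expressed by enterocytes, immune cells or crypt cells.

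The gene that was higher was Plcg2, a phospholipase C of receptor tyrosine kinase and immune signalling. Plcg2 was at 83.5, 87.9 and 79.1 CPM in Rbm47-IKO pools 1, 2 and 3 and at 43.1, 46.7 and 60.5 CPM in wt pools 1, 2 and 3. The genotypes did not overlap, and the log2 fold change was 0.74 (SE 0.14, 95% confidence interval 0.41 to 1.07, edgeR adjusted p = 0.0423). The call was lost without any 1 of the 6 pools, at adjusted p of 0.0504 to 0.223, with the log2 fold change at 0.64 to 0.90. Calls over all genes fell in those fits as well, from 443 to between 0 and 431. Its r with the member profile, the mean of the standardized log2 CPM of the 10 members, was 0.19 over the 6 pools and 0.73 for the deviations from the genotype means. Itpr3, the calcium store channel of the taste pathway, was at 505, 517 and 413 CPM in Rbm47-IKO pools 1, 2 and 3 and at 267, 335 and 311 CPM in wt pools 1, 2 and 3, also without overlap (log2 fold change 0.65, SE 0.14, edgeR adjusted p = 0.0576). Its r was 0.23 over the 6 pools and 0.79 for the deviations from the genotype means.

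Of the chemosensing list 8 of 11 genes were tested, and besides Plcg2 none was called in the edgeR test of all pools, Itpr3 having missed at an adjusted p of 0.0576. Plcb2, the phospholipase of the taste pathway, differed by -0.17 on the log2 scale and Rgs13, a regulator of G protein signalling, by -0.57 (adjusted p of 0.730 and 0.539 by edgeR). The G protein subunits Gnb3 and Gng13, with 2 to 9 and 1 to 4 counts, were too low for a test. In the eicosanoid list 0 of 8 were called, with edgeR adjusted p of 0.477 or more and 0 at an unadjusted p under 0.05. Its genes of highest mean CPM, not scaled by length, were the leukotriene A4 hydrolase Lta4h, the transporter Abcc1, the lipoxygenase Alox5 and the thromboxane synthase Tbxas1. Their log2 fold changes were 0.18, 0.24, -0.09 and -0.34.

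In the signalling list 0 of 18 were called, with edgeR adjusted p of 0.357 or more and 0 at an unadjusted p under 0.05. The 4 of highest mean CPM were the actin bundling gene Espn, the keratin Krt18, the surface antigen Cd24a and Ube2l6, with log2 fold changes of 0.07, 0.14, -0.06 and 0.24. In the transcription list 0 of 6 were called, again with 0 at an unadjusted p under 0.05. Nfatc1, Spib, Runx1 and Sox9 had log2 fold changes of 0.23, -0.24, -0.19 and 0.34.

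The other tuft cell genes often followed the member profile over the pools. Of the 40 tested, 11 had an r of at least 0.90 with it, beside 0.981% of all genes tested, and the median r was 0.77 beside -0.04 for all genes tested. The range within the lists was wide. The succinate receptor Sucnr1 stood at 0.96 and Tbxas1 at -0.66. Among non-members with a mean of at least 1 CPM, those most like the profile that are given here were Yipf5 (r = 0.990), 4930581F22Rik (0.990), 9130008F23Rik (0.988) and the short-chain fatty acid receptor Ffar3 (0.985). Ffar3 was at 3.87, 2.56 and 1.90 CPM in Rbm47-IKO pools 1, 2 and 3 and at 1.32, 3.14 and 3.81 CPM in wt pools 1, 2 and 3. Its lowest pool was wt 1, as for Trpm5. Yipf5 varied far less, from 33.0 to 44.6 CPM.

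**Figure D5:**
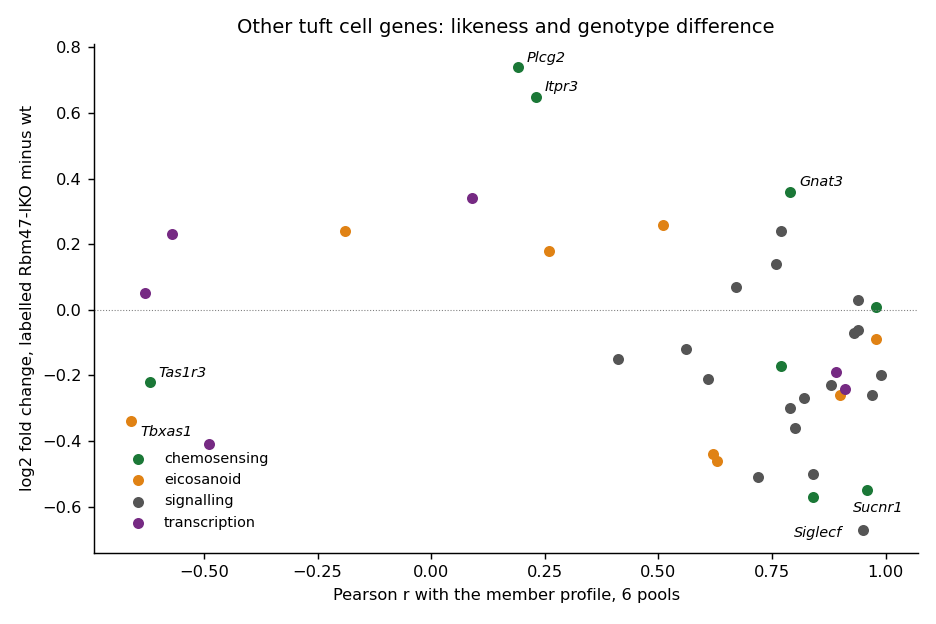
Fitted log2 fold change, labelled Rbm47-IKO over wt (vertical axis), against the Pearson r with the member profile over 6 pools (horizontal axis), for 40 other tuft cell genes coloured by list. Plcg2 and Itpr3 have the highest fold changes, 0.74 and 0.65, at r of 0.19 and 0.23 over all pools (0.73 and 0.79 for deviations from the genotype means), and Tbxas1 lies at the far left with r of -0.66.

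The genes that tuft cells act on, and that act back on them, were 19 in the tables, of which 12 were tested. By edgeR 1 was higher at an adjusted p of 0.05 and 0 were lower, with 2 at an unadjusted p under 0.05 and a median log2 fold change of 0.17. Over all genes tested the shares were 1.45% higher, 1.25% lower and 16.8% at an unadjusted p under 0.05. The 1 was Areg, amphiregulin, an epidermal growth factor receptor ligand made by epithelium and by lymphoid cells. Areg was at 24.6, 29.4 and 21.5 CPM in Rbm47-IKO pools 1, 2 and 3 and at 7.35, 9.09 and 9.17 CPM in wt pools 1, 2 and 3. The lowest of the former was above the highest of the latter, and the difference was 1.56 on the log2 scale (SE 0.16, 95% confidence interval 1.18 to 1.94, adjusted p = 0.00875 by edgeR). It passed in 3 of the 6 fits that left out a pool and missed without Rbm47-IKO 1, Rbm47-IKO 2 or wt 3, at edgeR adjusted p of up to 0.0685. In those 3 fits its log2 fold change was 1.57, 1.43 and 1.62, and calls over all genes fell from 443 to 32, 0 and 11.

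The cytokines of the lymphoid cells were at the edge of detection. Il13 had 5, 8 and 3 counts in Rbm47-IKO pools 1, 2 and 3 and 1, 1 and 7 counts in wt pools 1, 2 and 3, Il5 0 to 2 and Il9 0 to 1, and these were not tested. The receptor genes Il13ra1 and Il4ra and their transducer Stat6 differed by 0.19, -0.02 and 0.12 on the log2 scale (adjusted p of 0.711, 0.974 and 0.755 by edgeR). Il33, an alarmin of epithelium and stroma, was at 76.4, 67.7 and 55.0 CPM in Rbm47-IKO pools 1, 2 and 3 and at 31.3, 51.8 and 54.3 CPM in wt pools 1, 2 and 3. The genotypes of Il33 did not overlap but the closest pools nearly met, and the difference of 0.54 on the log2 scale did not pass (adjusted p = 0.280 by edgeR). Il17rb, the receptor for IL-25 and a member of the signalling list as well, differed by -0.27 (log2) with an adjusted p of 0.668 by edgeR.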

How the data were processed

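Polyadenylated RNA of 6 pools was sequenced. The authors aligned and counted reads per gene (per the submitters' processing notes STAR 2.5.1a, featureCounts 1.4.6-p5 and GRCm38) and deposited raw counts, CPM and RPKM side by side. The annotation release and the use of strand are not given in the sources used here. Genes were named by identifier (36639 of 38561 matched, unnamed genes held 0.369% of counts). Counts were scaled by TMM and tested in edgeR 4.0.16 (R 4.3.3) with filterByExpr, quasi-likelihood fits on genotype and Benjamini-Hochberg adjustment over all 16425 genes tested, of which 443 passed at 0.05 (238 higher, 205 lower). CPM in the text was recomputed from counts after TMM scaling. RPKM, which served to compare levels between genes, was that CPM divided by gene length. The deposited CPM and RPKM were not tested. Log2 CPM for correlations used a prior count of 2. The named genes were the members, Rbm47, the genes of each tuft or type 2 list past the threshold with the 4 of highest mean CPM where fewer than 4 passed, and the 5 genes most like the member profile, 1 of which is not reported here; Hpgds promoter letters, Dclk1 ratios, Sucnr1, Il13, Il5, Il9, Il17rb, Rgs13, Gnb3 and Gng13 were added after their values were seen. The members and lists were chosen with earlier results of these data known. The tests were tried on simulated data first. Alternatives used DESeq2 1.42.0, limma 3.58.1, other scalings and filters, a replicate block and pools left out. p-values set the genotype difference against the spread between pools, and reads are not independent molecules. Each pool mixes mice, so the spread between single mice was not seen, and precision rests on these 6 pools only. Promoter windows came from RefSeq GRCm38.p6.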

Additional observations from a re-analysis of the deposited data

How the results depend on the processing

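The number of tuft cell genes called was 0 in the 17 alternatives tried, over 169 fits of single members, with a lowest adjusted p of 0.0796 (Alox5ap without wt 1). Directions were not stable. Leaving out a pool moved the log2 fold change from -0.45 to 0.08 for Pou2f3, -0.62 to 0.10 for Gfi1b, -0.49 to 0.22 for Trpm5, -0.0025 to 0.53 for Dclk1, -0.46 to 0.24 for Avil, -0.33 to 0.28 for Sh2d6, -0.83 to 0.35 for Il25 and -0.26 to 0.43 for Ptgs1. Without the 2 muscle-rich pools (Rbm47-IKO 3 and wt 2) values turned to 0.03 for Pou2f3, 0.24 for Gfi1b, 0.00011 for Trpm5, 0.17 for Avil and for Sh2d6, and 0.70 for Il25. Sh2d6 was 0.0022 by limma-voom, and Ptgs1 was -0.40 without the lowest pool of each genotype, an alternative chosen after seeing the data. Alox5ap and Hpgds stayed below 0 in every fit, at -0.91 to -0.17 and -0.63 to -0.33 when a pool was left out. Without the 2 muscle-rich pools Alox5ap was at -0.10 and Hpgds at -0.49. Dclk1 stayed above 0 in all but 1 (without wt 1). The cause of these moves was not tested.

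Of the other tuft cell genes 2 were called by DESeq2, with upper quartile scaling, with library size only, with at least 1 CPM in at least 3 pools and in the robust fit, and 0 with RLE scaling, with the replicate block, without the 2 muscle-rich pools and without the lowest pool of each genotype. The number was 0 to 0 when a pool was left out, and for the type 2 genes 0 to 1. Over all genes the main fit called 443, DESeq2 1132, upper quartile scaling 533 and library size only 614. The 1 CPM filter called 550, the robust fit 506 and RLE scaling 383. The number was 327 without the 2 muscle-rich pools, 153 without the lowest pools and 0 to 431 when a pool was left out. Il25 received no adjusted p in DESeq2 and fell under the 1 CPM filter. At this depth Il25 rested on 1 to 15 counts a pool.

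Pools of the same number deviated together for number 1 but not for numbers 2 and 3 (r = 0.408, -0.00258 and -0.277 over 16425 genes). Pools of different numbers ran from -0.536 (Rbm47-IKO 1 with wt 2) to 0.479 (Rbm47-IKO 3 with wt 2). The numbers were therefore not taken as pairs. The replicate block called 100 genes, 0 members and 0 other tuft cell genes, with Plcg2 at 0.75 (adjusted p = 0.0901).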
